A study of Lens culinaris with 50 samples.

Results

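The step across fertilization in lentil (Lens culinaris, cultivar CDC Gold) was examined by setting whole seeds at the zygote stage against unfertilized ovules. The comparison used 4 of the 50 RNA-seq libraries of the series, 2 from whole seed at the zygote stage and 2 from the unfertilized ovule, which the labels class as whole seed too. The other 46 libraries came from dissected embryo, from seed coat and from later whole seed over 8 embryo stages. In order these are the zygote and quadrant stages, then globular and heart, then torpedo and early bent, and last late bent and mature. The 16 embryo and 16 seed coat libraries served to show where the changed genes stood later. All plants were CDC Gold kept under the same growth chamber regime, with no mutation or treatment named, and flowers were emasculated and then pollinated. The seed coat sample was whatever stayed behind when the embryo had been taken out with needles and forceps. How many seeds went into a library, and how long after pollination the zygote stage was collected, is stated in none of the sources used here.

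In flowering plants the ovule carries the egg cell and the central cell inside an embryo sac, wrapped in the integuments of the mother plant. Double fertilization makes the zygote from the egg cell and starts the endosperm from the central cell, and the integuments then grow into the seed coat. In legumes such as lentil the endosperm is largely used up, and the cotyledons of the embryo fill with storage protein and starch late in development. An intact seed at the zygote stage holds all of these tissues, with the zygote as a very small part.

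Values are normalized reads, which are read counts per gene divided by 1 factor per library. They carry no correction for gene length, so levels are compared for 1 gene across samples. The 4 libraries held 30663419 and 32537692 reads for zygote-stage whole seed, and 30916970 and 22411161 reads for unfertilized ovule. Ovule libraries had fewer genes at 0 than whole seed at the zygote stage, which had 38.99% and 38.74% of the 58243 genes at 0, against 18.16% and 21.64% in ovule. The 5 other libraries with the fewest genes at 0 were later in the series: seed coat replicate 2 at the early bent (13.9%), mature (14.3%) and torpedo (19.4%) stages, embryo mature replicate 2 (24.8%) and whole seed globular replicate 2 (28.1%). The limit is not a sharp one, since seed coat mature replicate 1 came next at 28.6%. The gene identifiers stand in the table without names, so genes are given by identifier, no function is stated for them, and the tissues were not checked against marker genes. In tissue samples of this kind, fewer cells of a type and less RNA per cell cannot be told apart.

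Across fertilization 483 genes were higher in zygote-stage whole seed than in ovule and 667 were lower, which is 1.64% and 2.27% of the 29440 genes abundant enough to test (limma on log2(normalized reads + 1), adjusted p under 0.05 and a fold of at least 2). The higher genes were mostly well expressed, the lower ones mostly rare. The genes higher in zygote-stage whole seed had a median level of 235.7 normalized reads there and 26.2 in ovule, and 327 of the 483 averaged at least 100 in zygote-stage whole seed. Those that were lower had a median of 1.69 in zygote-stage whole seed and 46.6 in ovule, and only 216 of the 667 averaged at least 100 in ovule. The 483 genes took 2.06% ± 0.27 of all reads in zygote-stage whole seed and 0.432% ± 0.019 in ovule, and the 667 took 0.280% ± 0.011 in zygote-stage whole seed and 1.10% ± 0.02 in ovule (SD, n = 2 each). Of the lower genes 112 had no read in either zygote-stage library, and 4 of the higher genes had none in either ovule library. On the scale of the fit 81 higher and 182 lower genes differed by more than 16-fold.

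Both zygote-stage libraries lay above both ovule libraries for all 483 higher genes, and below both for all 667 lower genes, while 22.2% and 38.6% of all tested genes were separated in these directions. This separation follows from how the genes were chosen. The median tested gene moved by -0.12 (log2, zygote-stage whole seed minus ovule) in the deposited scaling, by 0.11 with TMM scaling and by 0.00 with quantile scaling. The balance turned with the scaling, which also changed the set of genes tested: 42% of the 1150 changed genes were higher in zygote-stage whole seed in the deposited scaling, 54.5% with TMM scaling (738 higher, 617 lower) and 56.9% with quantile scaling (733 higher, 556 lower). Where the higher group averaged 100 normalized reads or more, 60.2% of the called genes were higher. Other alternatives moved the balance the other way. The share higher was 27.1% with no filter, 23.2% with library weights, 23.2% with the spread of the compared groups alone and 25.7% without the 5 later libraries with few genes at 0. The counts also depended on each of the 4 libraries, with 220 higher and 266 lower without zygote-stage whole seed replicate 1, 286 and 304 without its replicate 2, 201 and 265 without ovule replicate 1, and 197 and 212 without ovule replicate 2.

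**Figure D1:**
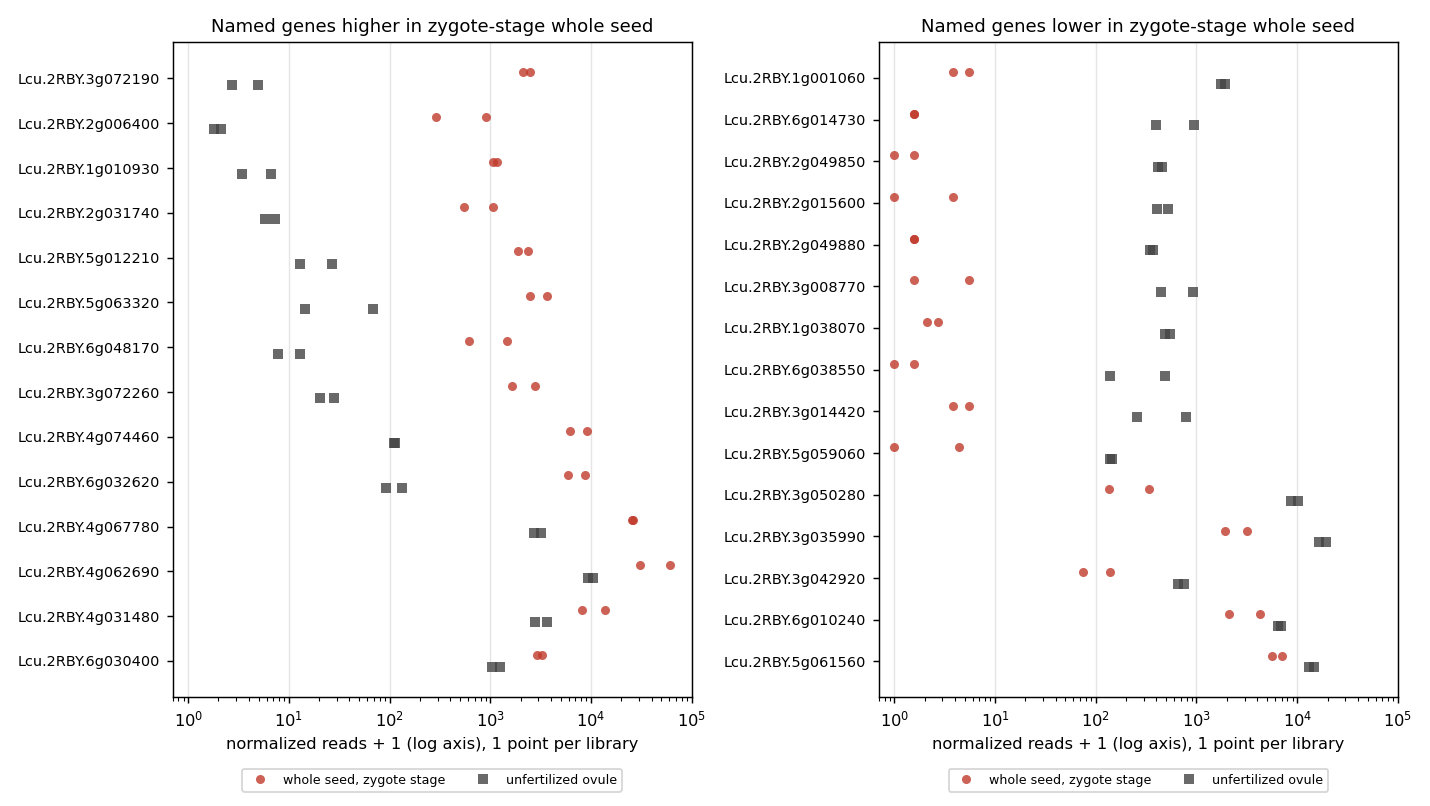
Normalized reads + 1 (log axis) of the 29 named genes in each library of zygote-stage whole seed (red circles) and unfertilized ovule (black squares), with 14 higher genes on the left and 15 lower genes on the right. The libraries of the groups do not overlap for any of these genes, which the rule for naming them required. Several of the lower genes have fewer than 10 normalized reads in both zygote-stage libraries.

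Most of the largest rises had their later peak in the seed coat. Of the 8 higher genes with the largest fold, 7 had their highest later mean in a seed coat group and 1, Lcu.2RBY.1g010930, in embryo. Of all tested genes 47.8% peaked in seed coat. Lcu.2RBY.3g072190 had 2118 and 2456 normalized reads in zygote-stage whole seed, against 1.70 and 3.99 in ovule (log2 difference 9.28, SE 1.00, adjusted p = 3.87e-07). The zygote-stage libraries were close to each other and far above both ovule libraries. The mature embryo had 3.33 and 3.37 normalized reads and the mature seed coat 238.7 and 47.9, after a peak of 28407 and 12787 in the late bent seed coat. The seed coat libraries at the torpedo stage were far apart for this gene, with 15132 in replicate 1 and 435.3 in replicate 2, which is one of the libraries with few genes at 0.

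Lcu.2RBY.2g006400 had 290.8 and 914.8 normalized reads in zygote-stage whole seed, against 1.13 and 0.798 in ovule, where it rested on 3 reads, which puts the ratio at 603 and its 95% counting interval at 206 to 2928 (adjusted p = 1.13e-05). Its zygote-stage libraries were more than 3-fold apart, yet both lay far above ovule. The seed coat level was highest at the heart stage, at 7535 and 7566, and the mature seed coat had 96.2 and 50.1. Lcu.2RBY.6g048170 had 607.4 and 1471 normalized reads in zygote-stage whole seed, against 6.80 and 11.98 in ovule (log2 difference 6.56, SE 0.81, adjusted p = 4.06e-06). It too was highest in seed coat at the heart stage, with 8531 and 11738, and had nearly vanished from the late bent seed coat, with 17.1 and 19.6. Both genes were thus high in the seed coat of the middle stages and low in the mature one.

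Other genes went on rising in the seed coat past the middle stages. Lcu.2RBY.5g063320 had 3683 and 2490 normalized reads in zygote-stage whole seed, against 68.0 and 13.6 in ovule (log2 difference 6.58, SE 0.76, adjusted p = 1.20e-06). In embryo it had 6.65 and 20.2 at the mature stage, against 1640 and 1251 at the zygote stage, and the mature seed coat had 35899 and 38978, against 836.1 and 1421 in the zygote-stage seed coat. Lcu.2RBY.3g072260 had 1658 and 2752 normalized reads in zygote-stage whole seed, against 27.2 and 19.2 in ovule (log2 difference 6.49, SE 0.62, adjusted p = 4.58e-08). Its seed coat level reached 79166 and 50458 at the late bent stage. Both genes fell in embryo and rose in seed coat between the zygote and the mature stage.

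Lcu.2RBY.2g031740 had 545.2 and 1069 normalized reads in zygote-stage whole seed, against 6.23 and 4.79 in ovule (log2 difference 6.88, SE 0.72, adjusted p = 2.26e-07). In seed coat it was highest at the early bent stage, with 39619 and 60270, and whole seed at that stage had 39003 and 42922. Lcu.2RBY.5g012210 had 2355 and 1877 normalized reads in zygote-stage whole seed, against 26.1 and 11.98 in ovule (log2 difference 6.81, SE 0.64, adjusted p = 3.99e-08). This gene was nearly as high in zygote-stage embryo, 1362 and 2110, as in zygote-stage whole seed, and the embryo had 49.7 and 39.5 by the quadrant stage. Lcu.2RBY.1g010930 was the exception among the 8, a short-lived transcript in every tissue. It had 1064 and 1170 normalized reads in zygote-stage whole seed, against 5.67 and 2.40 in ovule (log2 difference 7.88, SE 1.10, adjusted p = 1.71e-05). From the heart stage on no embryo library held more than 6.74 normalized reads of it, and from the torpedo stage on no seed coat library held more than 16.2. Its embryo peak was at the zygote stage, with libraries far apart at 286.9 and 1288. Quadrant seed coat had 663.0 and 805.6, which lie between them.

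The most abundant genes among those that rose showed 3 later courses. Lcu.2RBY.4g062690 had 60366 and 30908 normalized reads in zygote-stage whole seed, against 10566 and 9429 in ovule (log2 difference 2.11, SE 0.46, adjusted p = 0.00443). It was highest in the early bent embryo, at 245428 and 243320, and low in the mature embryo, at 1580 and 2579. Its call was lost without zygote-stage whole seed replicate 1 (adjusted p = 0.159) and without ovule replicate 2 (adjusted p = 0.0705). Lcu.2RBY.4g067780 had 25578 and 26219 normalized reads in zygote-stage whole seed, against 2732 and 3201 in ovule (log2 difference 3.13, SE 0.62, adjusted p = 0.00215). This gene was at its highest at once, with 29173 and 26912 in the zygote-stage seed coat, and declined with each seed coat stage to 5.70 and 14.2 at maturity. Lcu.2RBY.4g031480 had 13887 and 8116 normalized reads in zygote-stage whole seed, against 3633 and 2766 in ovule (log2 difference 1.74, SE 0.39, adjusted p = 0.00617). In the late bent seed coat it had 72528 and 77778. Its call was lost without zygote-stage whole seed replicate 1 (adjusted p = 0.179), without ovule replicate 2 (adjusted p = 0.128) and with quantile scaling (adjusted p = 0.0540).

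The risers with the highest later levels were picked separately for each tissue, so their split between tissues follows from the rule. Lcu.2RBY.4g074460 had 6136 and 9069 normalized reads in zygote-stage whole seed, against 110.5 and 113.4 in ovule (log2 difference 6.05, SE 0.63, adjusted p = 2.07e-07). No embryo library exceeded 500.7, while the seed coat had 16485 and 14797 at the zygote stage and 392318 and 408173 at maturity. Lcu.2RBY.6g032620 had 5917 and 8819 normalized reads in zygote-stage whole seed, against 132.0 and 91.8 in ovule (log2 difference 6.02, SE 0.63, adjusted p = 2.07e-07), and the late bent seed coat had 319296 and 173317. They were named for having the highest later seed coat means of the list. Lcu.2RBY.6g030400, named for its later embryo level, had 220159 and 204222 in the late bent embryo and 733.3 and 580.7 in the mature seed coat. It had 3287 and 2887 normalized reads in zygote-stage whole seed, against 1262 and 1050 in ovule (log2 difference 1.42, SE 0.40, adjusted p = 0.0374). This was a borderline call: adjusted p was 0.238 and 0.123 without zygote-stage whole seed replicates 1 and 2, 0.138 and 0.277 without ovule replicates 1 and 2, 0.0512 with no filter and 0.0625 by edgeR.

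As a group, the genes that rose across fertilization were higher in the seed coat samples than in embryo. These samples are what stayed behind when the embryo was taken out, and whether they held endosperm was not tested. Averaged over the 8 stages, 31 of the 483 (6.42%) favoured the embryo and 347 (71.8%) the seed coat, where 12.7% and 26.2% of all tested genes were called in these directions. The fold that chose the genes uses only the 4 libraries compared, while the embryo and seed coat libraries also entered the shared spread and the filter on low values. With the spread of the compared groups alone, 1009 genes were higher and 3338 lower in zygote-stage whole seed, and 68.3% of the 1009 were higher in seed coat. The share of all tested genes higher in seed coat under that fit was not computed. Among risers with at least 100 normalized reads in zygote-stage whole seed, 14 of 327 were higher in embryo and 242 (74.0%) in seed coat, where 12.5% and 18.1% of the tested genes of at least that level were. The median difference of the risers, embryo minus seed coat, was -2.63 (log2), and that of all tested genes was -0.24.

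The tissue contrast of the risers opened between the zygote and the quadrant stage. At the zygote stage 31 of the 483 were higher in embryo and another 155 (32.1%) in seed coat, with 9.9% and 8.28% of all tested genes called. At the quadrant stage 32 were higher in embryo and 359 (74.3%) in seed coat, with 16.5% and 20.6% of all tested genes called. From the globular to the torpedo stage the count higher in seed coat stayed between 345 and 353, and it was 302, 262 and 261 at the early bent, late bent and mature stages. The count higher in embryo was 44, 35, 34, 51, 78 and 75 from the globular to the mature stage. Over those stages the background was 12.1%, 11.1%, 13.8%, 13.8%, 17.7% and 18.3% for embryo and 15%, 16%, 27.6%, 27.7%, 23.1% and 21.9% for seed coat.

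**Figure D2:**
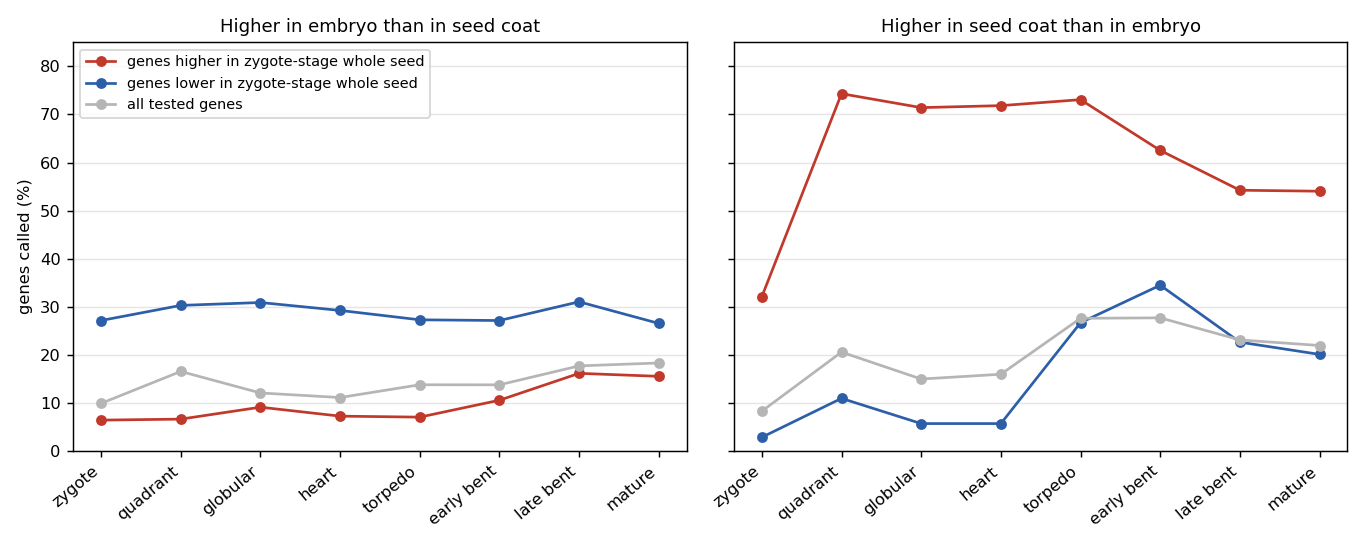
Share of genes called higher in embryo (left) or in seed coat (right) at each of the 8 stages, in percent of each list, for the 483 genes higher in zygote-stage whole seed (red), the 667 lower genes (blue) and all 29440 tested genes (grey). The red line jumps between the zygote and quadrant stages in the right panel, where it reaches 74.3%, and the blue line lies above the grey one at every stage in the left panel.

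The levels behind this show where the risers were lost. In embryo the median riser had 124.5 normalized reads at the zygote stage and 28.3, 20.6, 20.6, 21.8, 29.8, 46.9 and 25.9 at the stages that followed. In seed coat the median was 222.9 at the zygote stage and 239.6, 245.0, 279.8, 402.6, 291.0, 346.7 and 215.1 at the stages that followed. The embryo median thus stood at its highest in the zygote-stage libraries and the seed coat median did not. In the same libraries the median of all tested genes was 92.9 in zygote-stage embryo and 93.4 in zygote-stage seed coat, and 63.2 in quadrant embryo and 93.4 in quadrant seed coat. The part of seed coat RNA carried into the dissected zygote-stage embryo in these values was not tested.

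Counted gene by gene, 237 of the 483 risers (49.1%) had at least 50% of their whole seed zygote level in zygote-stage embryo and 444 (91.9%) in zygote-stage seed coat. Of all tested genes with a read in zygote-stage whole seed 71.98% and 89.2% did, so the seed coat share was near the background. At the quadrant stage these counts were 78 (16.1%) in embryo and 394 (81.6%) in seed coat. Of the same tested genes, 60.3% in quadrant embryo and 84.6% in quadrant seed coat had at least 50% of that level. At maturity 146 risers (30.2%) in embryo and 277 (57.3%) in seed coat had at least 50%, against 73.02% and 78.8% of those tested genes. Under 10% were 220 risers (45.5%) in embryo and 98 (20.3%) in seed coat, against 8.94% and 5.88% of those tested genes.

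**Figure D3:**
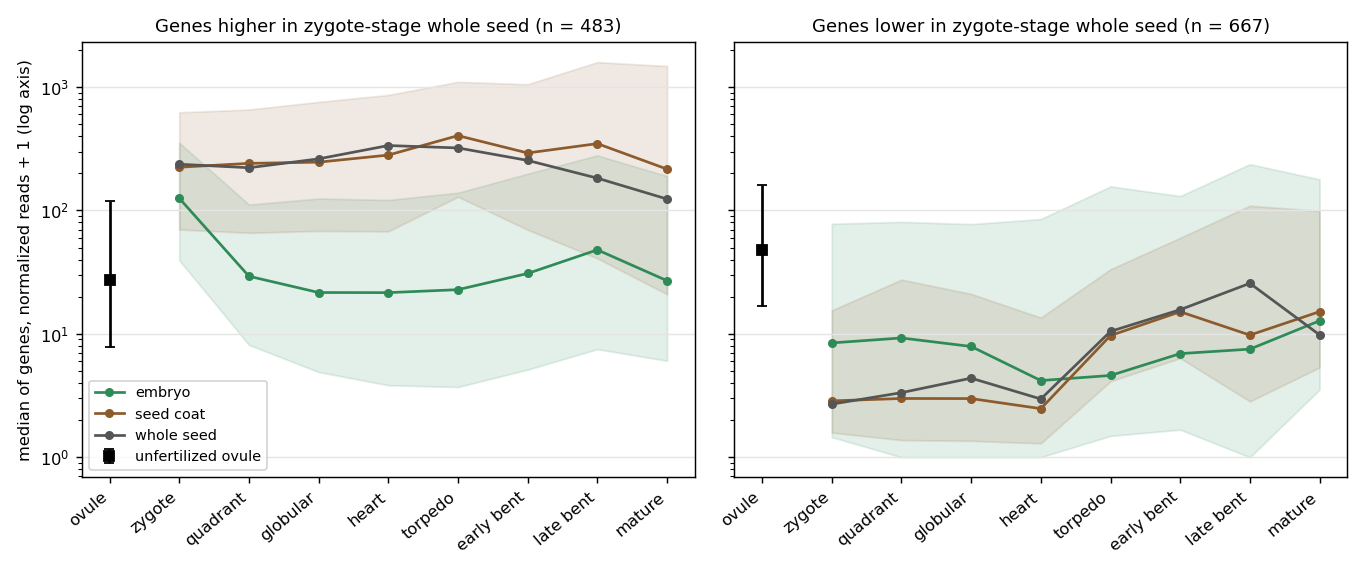
Median normalized reads + 1 over genes (log axis) from unfertilized ovule (black square, bar from the lower to the upper quartile) through the 8 stages in embryo (green), seed coat (brown) and whole seed (grey), for the 483 higher genes on the left and the 667 lower genes on the right, with quartile bands for embryo and seed coat. The embryo median of the higher genes drops from the zygote to the quadrant stage while seed coat and whole seed stay near their zygote level, and the lower genes remain below their ovule median of 46.6 in the medians of every later group.

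Within the seed coat some risers rose late and others fell, and only the share that fell stood well above the background. Between the zygote-stage and the mature seed coat 168 of the 483 rose (34.8%, background 30.6%), 170 fell (35.2%, background 17.9%) and 145 were not called. Of the 347 with more reads in seed coat than in embryo, 149 rose, 104 fell and 94 were not called. The median of these 149 genes was 2284 normalized reads in mature seed coat, against 223.2 in zygote-stage seed coat, and the 104 had 13.8 in mature seed coat, against 309.6 in zygote-stage seed coat, values that follow from how these classes were formed. The 149 and the 104 made up 30.8% and 21.5% of the risers, where the same classes held 14.7% and 3.10% of all tested genes. Of the 7716 tested genes higher in seed coat, 4326 rose, 912 fell and 2478 were not called. Falls were thus more common, relative to rises, among the risers than among all genes higher in seed coat. In embryo 96 risers rose between zygote and maturity (19.9%, background 27.9%) and 258 fell (53.4%, background 25.5%). Over the 16 embryo and seed coat groups 120 risers peaked in embryo and 363 (75.2%) in seed coat, against 47.8% of all tested genes peaking in seed coat. The late bent seed coat held the peak of 86 risers (17.8%, against 7.23% of all tested genes). The mature seed coat held that of 91 (18.8%), a share near the 18.9% of all tested genes.

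The genes that were lower after fertilization did not form 1 class. They included genes seen almost only in the ovule, genes abundant in ovule that came back later in a tissue, and genes that were rare in ovule or very abundant late in seed filling. Of the 8 lower genes with the largest fold, 5 stayed low and 3 became some of the most abundant transcripts of the late embryo.

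Lcu.2RBY.1g001060 had 4.48 and 2.86 normalized reads in zygote-stage whole seed, against 1922 and 1751 in ovule (log2 difference -8.64, SE 0.79, adjusted p = 1.14e-08). No later group mean exceeded 58.1, in the late bent seed coat. Lcu.2RBY.6g014730 had 0.560 and 0.571 normalized reads in zygote-stage whole seed, 1 read in each library, against 399.4 and 936.5 in ovule (adjusted p = 4.58e-08). The ratio of ovule over zygote-stage whole seed was 1100, with a 95% counting interval of 304 to 9092. Its highest later mean was 12.6, in the mature embryo, so this transcript was nearly confined to the ovule among the groups sampled.

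Lcu.2RBY.2g015600 had 2.80 and 0 normalized reads in zygote-stage whole seed, against 408.5 and 523.0 in ovule (log2 difference -7.89, SE 0.70, adjusted p = 7.56e-09), although DESeq2 on the recovered reads did not call it (adjusted p = 0.278). No other library of the series held more than 3.82. Lcu.2RBY.2g049850 had 0 and 0.571 normalized reads in zygote-stage whole seed, against 449.8 and 411.2 in ovule, an ovule over zygote-stage ratio of 1534 whose counting interval, over 1 read, is 275 to 60629 (adjusted p = 1.51e-08, and 0.0631 by DESeq2). Lcu.2RBY.2g049880 had 0.560 and 0.571 normalized reads in zygote-stage whole seed, against 370.5 and 345.7 in ovule, an ovule over zygote-stage ratio of 637 whose counting interval, over 2 reads, is 176 to 5265 (adjusted p = 6.92e-08). Lcu.2RBY.2g049850 and Lcu.2RBY.2g049880 are near each other in the identifier order of chromosome 2. With Lcu.2RBY.2g049820 and Lcu.2RBY.2g049860, which averaged 1.14 normalized reads each in zygote-stage whole seed and 143.9 and 326.4 in ovule, they form a run of 4 consecutive tested genes that all fell (adjusted p = 3.57e-08 and 1.71e-09). Whether the 4 share sequence, so that reads could be split among them, was not analysed here.

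Of the 216 lower genes with at least 100 normalized reads in ovule, 20 stayed under 10% of their ovule level in every group from the zygote stage on, whole seed included. Over all 667 lower genes 47 did. No other tested gene with reads in ovule did so (20 of 14497 genes with at least 100 in ovule, 0.138%, and 47 of 29351 with any, 0.160%), since such a gene must itself be low in zygote-stage whole seed. The most abundant of the 20 was Lcu.2RBY.3g050280, with 339.6 and 134.8 normalized reads in zygote-stage whole seed, against 8610 and 10202 in ovule (log2 difference -5.45, SE 1.18, adjusted p = 0.00522). It lost its call without zygote-stage whole seed replicate 2 (adjusted p = 0.0898) and without ovule replicate 2 (adjusted p = 0.0681). Of the 20 genes, 5 were highest after the ovule in zygote-stage whole seed itself. The most abundant of all lower genes, Lcu.2RBY.3g035990, had 3196 and 1915 normalized reads in zygote-stage whole seed, against 19122 and 16491 in ovule (log2 difference -2.84, SE 0.51, adjusted p = 0.000617). In embryo it averaged 56.4 at the quadrant stage and 209 at the torpedo stage, and in seed coat 126 at the globular stage and 214 at the early bent stage. At maturity it had 23.3 and 15.2 in embryo and 7.84 and 23.97 in seed coat, the lowest mean of either tissue.

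Other lower genes were again as high as in ovule, or higher, in embryo or seed coat. Lcu.2RBY.5g061560 had 7129 and 5647 normalized reads in zygote-stage whole seed, against 14683 and 13005 in ovule (log2 difference -1.12, SE 0.29, adjusted p = 0.0190). From the quadrant to the late bent stage embryo libraries held between 16152 and 24205 of it, above both ovule libraries. Its fold is near the limit of 2, and the call was lost with TMM scaling (adjusted p = 0.118) and without each of the 4 libraries (adjusted p = 0.0545 and 0.187 without zygote-stage whole seed replicates 1 and 2, 0.186 and 0.0953 without ovule replicates 1 and 2). Lcu.2RBY.6g010240 had 2112 and 4308 normalized reads in zygote-stage whole seed, against 6872 and 6505 in ovule (log2 difference -1.15, SE 0.32, adjusted p = 0.0364). In embryo it was highest at the quadrant stage, at 39305 and 38182, and in seed coat at maturity, at 54468 and 24419. This call was lost without zygote-stage whole seed replicate 1 (adjusted p = 0.517), without ovule replicates 1 and 2 (adjusted p = 0.226 and 0.184), with TMM scaling (0.118), with the spread of the compared groups alone (0.0688) and by edgeR (0.0753).

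Lcu.2RBY.3g042920 had 137.3 and 74.2 normalized reads in zygote-stage whole seed, against 655.5 and 756.1 in ovule (log2 difference -2.79, SE 0.70, adjusted p = 0.0182). The mature embryo had 58.2 and 74.1 of it, and the mature seed coat 88256 and 49594. This gene thus fell across fertilization and was high in seed coat at the end. Its call was lost without each of the 4 libraries (adjusted p = 0.0505 and 0.187 without zygote-stage whole seed replicates 1 and 2, 0.106 and 0.158 without ovule replicates 1 and 2).

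A separate set of lower genes had ovule levels that were minute beside what the same genes reached later. Of the 667 lower genes 57 had an ovule level under 0.1% of their highest library in the series, and 47 of these lay between 0.01% and 0.03%. The limit of 0.1% was chosen after seeing the values: the nearest lower genes on either side stood at 0.0727% and 0.103%. Of the 57, 54 peaked in embryo, 26 at the late bent, 27 at the mature and 1 at the early bent stage, and 3 peaked in the late bent seed coat. Only 1 of the 483 risers had its zygote-stage level under 0.1% of its highest library.

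Lcu.2RBY.3g008770 had 4.48 and 0.571 normalized reads in zygote-stage whole seed, against 441.9 and 917.4 in ovule (log2 difference -7.76, SE 1.14, adjusted p = 4.76e-05), and 3503100 and 3342700 in the late bent embryo. Lcu.2RBY.1g038070 had 1.12 and 1.71 normalized reads in zygote-stage whole seed, against 483.8 and 542.9 in ovule (log2 difference -7.74, SE 1.75, adjusted p = 0.00766), and 3068720 and 3194710 in the mature embryo. In zygote-stage embryo the first had 3251 and 2043 normalized reads and the second 3109 and 575.5, so both were far higher in that dissected tissue than in the intact seed of the same stage. Lcu.2RBY.1g038070 lost its call without each of the 4 libraries (adjusted p = 0.0819 and 0.0538 without zygote-stage whole seed replicates 1 and 2, 0.0689 and 0.0827 without ovule replicates 1 and 2). Lcu.2RBY.6g038550 had 0.560 and 0 normalized reads in zygote-stage whole seed, 1 read in all, against 137.1 and 489.4 in ovule (adjusted p = 0.00134), an ovule over zygote-stage ratio of 1002 whose counting interval is 179 to 39617. The late bent embryo had 2249030 and 1781390 of it, and its call was lost without ovule replicate 2 (adjusted p = 0.0522).

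Lcu.2RBY.3g014420 had 2.80 and 4.57 normalized reads in zygote-stage whole seed, against 256.1 and 783.2 in ovule (log2 difference -6.61, SE 1.31, adjusted p = 0.00217), with 3680680 and 2871660 in the late bent embryo. Without ovule replicate 2 its call was lost (adjusted p = 0.0705). Its ovule libraries were more than 3-fold apart, as were those of Lcu.2RBY.6g038550. Lcu.2RBY.5g059060 was the seed coat counterpart, with 3.36 and 0 normalized reads in zygote-stage whole seed, against 136.0 and 142.9 in ovule (log2 difference -6.07, SE 0.83, adjusted p = 1.51e-05), and 693973 and 466495 in the late bent seed coat.

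For these 57 genes zygote-stage whole seed had a median of 0.000281% of the peak mean, and ovule 0.0176% with quartiles at 0.0157% and 0.0258%. Zygote-stage embryo had a median of 0.0769%. More widely, 145 tested genes had a later peak mean of at least 10000 normalized reads and under 10 in zygote-stage whole seed. These 145 had a median of 0.00235% and 0.00125% of their peak in the zygote-stage whole seed libraries, and of 0.0199% and 0.0241% in the ovule libraries. Of the 145 genes, 57 (39.3%) were called lower, against 5.13% of the 9245 tested genes under 10 in zygote-stage whole seed, a limit that itself favours lower calls. The called genes are not the same set as the 57 under 0.1%, whose means in zygote-stage whole seed reached 54.4. The ovule libraries thus held the abundant late transcripts at a small share of their peak, and whether part of these reads came from other libraries or tissues was not tested. With the 57 genes under 0.1% left out 610 lower genes remained, 197 of them with at least 100 normalized reads in ovule and 413 with fewer.

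**Figure D4:**
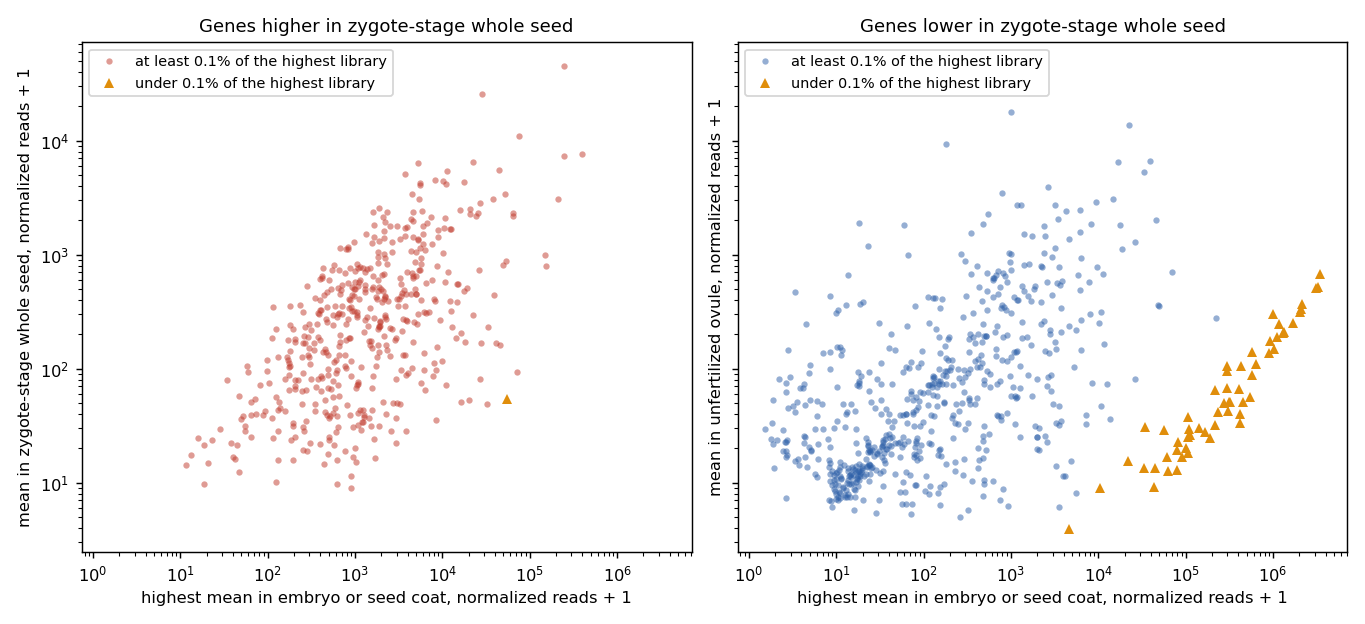
For each changed gene, its mean in zygote-stage whole seed (483 higher genes, left) or in unfertilized ovule (667 lower genes, right) against its highest mean in an embryo or seed coat group, both as normalized reads + 1 on log axes. Orange triangles mark genes under 0.1% of their highest library, 1 on the left and 57 on the right, where they form a narrow band along the right edge.

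Where the lower genes stood between embryo and seed coat depended on the fit. Averaged over the stages 220 of the 667 (32.98%) were higher in embryo and 172 (25.8%) in seed coat, where 12.7% and 26.2% of all tested genes were. Among lower genes with at least 100 normalized reads in ovule 96 of 216 (44.4%) were higher in embryo and 41 (18.98%) in seed coat. Among the 197 of them at or above 0.1% of their highest library these were 78 (39.6%) and 40 (20.3%). Of all tested genes with at least 100 in zygote-stage whole seed or ovule 12.5% and 18.1% were. The seed coat shares were thus near the background. At the zygote stage 181 lower genes (27.1%) were higher in embryo and 19 (2.85%) in seed coat, with 9.9% and 8.28% of all tested genes called. The 181 include all 57 genes under 0.1% of their highest library. Of the other lower genes, 52 of the 197 with at least 100 in ovule (26.4%) and 72 of the 413 rarer ones (17.4%) were higher in embryo. Of all tested genes of these levels 8.34% and 11.6% were. Over all 667 the embryo share stayed between 26.54% and 31.03% at the following stages, and the seed coat share lay between 5.70% and 34.5%, highest at the early bent stage. The share higher in seed coat was 12.8% to 15.8% of the lower genes left without any 1 of the 4 libraries compared. The order turned in 5 alternatives. Without the 57 genes under 0.1% of their highest library the shares were nearly level, 27.2% in embryo and 27.7% in seed coat. With library weights 13.6% of the lower genes were higher in embryo and 45.8% in seed coat, and with the spread of the compared groups alone 13.2% and 48.7%. Without the 5 later libraries with few genes at 0, added after seeing the data, 16.8% of 1947 lower genes were higher in embryo and 33.5% in seed coat, and with the limit set at 25% of genes at 0, which leaves out 4 libraries, 19.6% of 1590 and 30.7%. For fits other than the main one the shares of all tested genes were not computed, so these values have no background beside them. By highest later mean 341 of the 667 (51.1%) peaked in embryo, near the 52.2% of all tested genes.

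From zygote to maturity the lower genes more often rose than fell in both tissues. In embryo 280 rose (41.98%, background 27.9%) and 114 fell (17.1%, background 25.5%), and in seed coat 349 rose (52.3%, background 30.6%) and 65 fell (9.75%, background 17.9%). Mature replicate 2 of each tissue is a library with few genes at 0, so these shares rest partly on such libraries. In it, 46.6% (embryo) and 52.1% (seed coat) of lower genes under 100 in ovule were at least 2-fold above replicate 1. Of all tested genes, which were not matched for level, 27.7% and 26.01% were. Without the 5 such libraries, which gives 1947 lower genes, smaller shares rose in both tissues, though rises still outnumbered falls. Of the 57 genes under 0.1% all rose in both tissues, which their choice by late peaks nearly fixes. Of the 197 abundant in ovule, 60 (30.5%) rose and 67 (34.01%) fell in embryo, and 71 (36.04%) rose and 58 (29.4%) fell in seed coat. Of all tested genes of at least 100 normalized reads 24.1% rose and 33.4% fell in embryo, and 19.7% rose and 26.9% fell in seed coat, so the falls were near the background. The 413 rarer genes rose in 163 cases (39.5%) in embryo and in 221 (53.5%) in seed coat, where 31.99% and 42.2% of all tested genes under 100 rose. They fell in 47 cases (11.4%) in embryo and in 7 (1.69%) in seed coat, against 17.1% and 8.38% of those tested genes. A later group reached the ovule level for 506 of the 667 genes (75.9%, against 96.4% of all tested genes with a read in ovule), and for 428 without the 5 libraries with few genes at 0.

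The rarer lower genes were also high in libraries with few genes at 0. In seed coat early bent replicate 2, 60.1% of the 451 lower genes with under 100 normalized reads in ovule were at least 2-fold above replicate 1 of the same group on the scale of normalized reads + 1, against 23.8% of all tested genes. The other such libraries gave 52.1%, 38.6%, 46.6% and 31.5% for these genes, in the order mature seed coat, torpedo seed coat, mature embryo and globular whole seed, against 26.01%, 23.5%, 27.7% and 15.9% of all tested genes. For lower genes with at least 100 in ovule the shares were 26.4%, 20.8%, 21.3%, 17.6% and 12.96%, and for the risers 11.8%, 14.9%, 30.02%, 22.2% and 12.01%. Thus the 451 rare genes stood above all tested genes in all 5 libraries. No share was computed for tested genes of similarly low level, so an effect of level cannot be told apart here. The ovule libraries share the low number of genes at 0, and its part in the call of these genes was not tested.

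**Figure D5:**
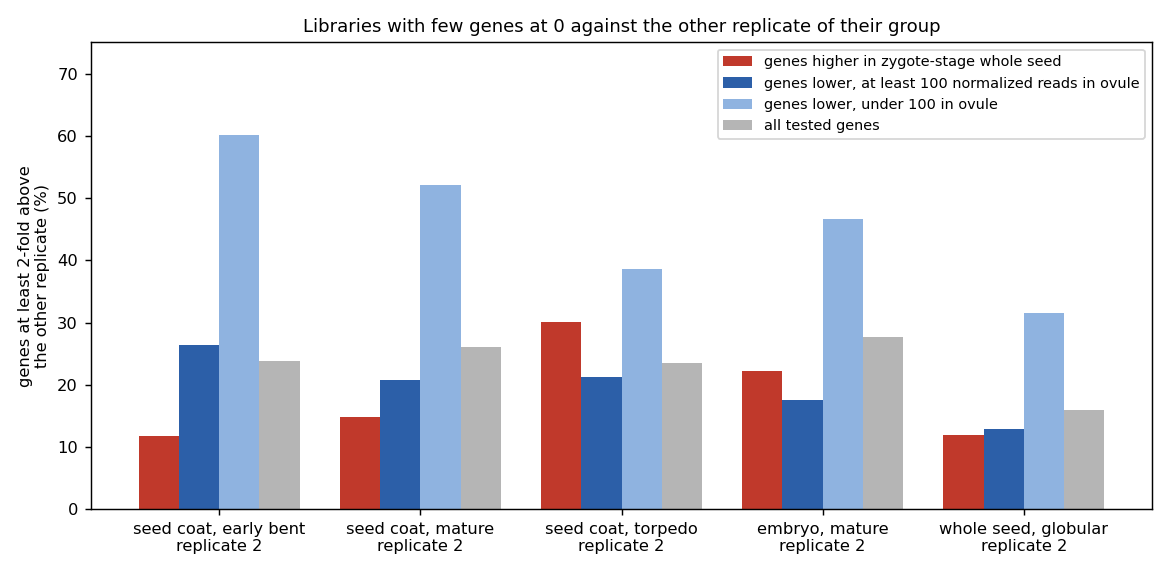
Percent of genes at least 2-fold above the other replicate of the same group, in the 5 later libraries with few genes at 0, for the 483 higher genes (red), the 216 lower genes with at least 100 normalized reads in ovule (dark blue), the 451 lower genes under 100 (light blue) and all tested genes (grey). The light blue bars are the tallest in each library, from 31.5% to 60.1%.

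Changed genes lay next to each other in the identifier order more often than their overall share. Of the 966 tested neighbours of the risers 54 (5.59%) were risers too, against 1.64% of all tested genes, and of the 1334 neighbours of the lower genes 84 (6.30%) were lower too, against 2.27%. They formed 24 runs of risers of at most 3 genes and 34 runs of lower genes of at most 4. A run of risers was Lcu.2RBY.2g093370, Lcu.2RBY.2g093380 and Lcu.2RBY.2g093390 on chromosome 2, which averaged 5471, 603.7 and 406.7 normalized reads in zygote-stage whole seed and 616.3, 15.9 and 188.6 in ovule, each with its later peak in seed coat. By chromosome, as the identifiers name it, lower genes made up 3.13% of the tested genes of chromosome 3 and between 1.59% and 2.30% elsewhere. Risers made up between 0.908% and 1.95%, the lowest in the group of identifiers marked L.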

How the data were processed

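RNA was measured by RNA-seq in 50 libraries, 2 for each of 25 combinations of tissue and stage. Per the labels' protocols, the library kit was one for small amounts of RNA. CASAVA, Trimmomatic, featureCounts and DESeq2 stand in the submitters' processing notes without versions or roles, while no source used here states the aligner or the build. The deposited table holds signal values, which by their own steps are read counts divided by 1 factor per library. With a tolerance of 0.001 reads, 100% of the values gave back whole reads, and the factors match median-of-ratios size factors as DESeq2 computes them. The libraries held 13019472 to 35634980 reads (median 23945567). Reads after amplification are not independent molecules, so counting intervals cover counting error only.

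Groups come from the labels. Replicates are separate samples there, and nothing ties them to separate plants, so p-values reflect only how far these samples differ, in part perhaps for technical reasons. Of 58243 genes, the 29440 that reached 10 normalized reads in 2 or more libraries were tested. The test was limma 3.58.1 (R 4.3.3; trend and robust) on normalized reads, as log2(reads + 1), fitted with 25 group means and 25 residual degrees of freedom. This scale understates the fold of rare genes. Calls needed an adjusted p (Benjamini-Hochberg, over every gene tested) under 0.05 together with a 2-fold difference or more. The procedure was tested on simulated counts.

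The 29 named genes are, among called genes whose replicates are separated and whose higher group averages 100 normalized reads or more, the 8 with the largest fold and the 4 with the highest level in each direction, and the 2 with the highest later level among those that peak in embryo, and likewise in seed coat. Genes named for a run of neighbours were chosen after their values were seen. The comparison, members and lists were chosen with earlier results of these data known. Alternatives were pseudocounts 0.5 and 8, no filter, a filter of 50, TMM and quantile scaling, library weights, the spread of the compared groups alone, no fold, the replicate number as a block, edgeR 4.0.16 and DESeq2 1.42.0 on the recovered reads, a minimum of 100 in the higher group, and leaving out each of the 4 libraries. Leaving out the 5 libraries with few genes at 0, or the 4 of them under 25%, and genes under 0.1% of their highest library, were added after seeing the data.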

Additional observations from a re-analysis of the deposited data

Results flagged for a closer look

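For 8 named genes the change from the zygote to the mature stage went in opposite directions in embryo and seed coat, and the test of the difference between the tissues (interaction, limma, adjusted over all tested genes) was passed. The values are the change in embryo minus the change in seed coat, on the log2 scale. Over all tested genes this difference was called positive in 15.7% and negative in 20.8%, whether or not the directions were opposite. Lcu.2RBY.6g030400, Lcu.2RBY.6g032620 and Lcu.2RBY.3g042920 were named for a high later level in 1 tissue, which favours such a difference. Among the genes that rose across fertilization the difference was -6.43 for Lcu.2RBY.2g031740 (SE 1.01), -11.91 for Lcu.2RBY.5g063320 (SE 1.07), -8.74 for Lcu.2RBY.3g072260 (SE 0.88), -7.11 for Lcu.2RBY.4g031480 (SE 0.55) and -9.00 for Lcu.2RBY.6g032620 (SE 0.89), all of which fell in embryo and rose in seed coat. Lcu.2RBY.6g030400 rose in embryo and fell in seed coat, with a difference of 7.28 (SE 0.57). Among the genes that were lower after fertilization the difference was -4.98 for Lcu.2RBY.6g010240 (SE 0.46) and -12.17 for Lcu.2RBY.3g042920 (SE 0.99), which fell in embryo and rose in seed coat.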

How the results depend on the processing

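The direction of each named gene was the same in all 493 combinations of a named gene and an alternative, and 457 stayed on the same side of the threshold. Calls were lost in the other 36, for the genes marked in the results, whose adjusted p ran from 2.90e-06 to 0.0827 over the 17 alternatives for Lcu.2RBY.1g038070, 3.34e-19 to 0.278 for Lcu.2RBY.2g015600, 1.63e-16 to 0.0631 for Lcu.2RBY.2g049850, 1.69e-07 to 0.0705 for Lcu.2RBY.3g014420, 0.000500 to 0.187 for Lcu.2RBY.3g042920, 2.22e-07 to 0.0898 for Lcu.2RBY.3g050280, 5.63e-05 to 0.179 for Lcu.2RBY.4g031480, 9.49e-06 to 0.159 for Lcu.2RBY.4g062690, 6.34e-05 to 0.187 for Lcu.2RBY.5g061560, 0.00102 to 0.517 for Lcu.2RBY.6g010240, 0.000397 to 0.277 for Lcu.2RBY.6g030400 and 2.65e-05 to 0.0522 for Lcu.2RBY.6g038550. The causes were not tested. Depth limits what can be said of the fold of the 112 lower genes without a read in zygote-stage whole seed.

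The number of genes higher in zygote-stage whole seed (483) became 757 by DESeq2, 738 with TMM scaling, 733 with quantile scaling, 1112 with library weights and 1009 with the spread of the compared groups alone. The number lower (667) became 216 where the ovule averaged 100 normalized reads or more, 1243 with no filter, 3682 with library weights, 3338 with the spread of the compared groups alone 1947 when the 5 libraries with few genes at 0 were left out and 1590 when 4 of them, those under 25%, were. Without 1 of the 4 libraries it was 197 to 286 higher and 212 to 304 lower.

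For the risers the share higher in seed coat over the stages (71.8%) became 66.5% with TMM scaling, 65.4% with library weights, 79.5% with no fold required, 67.5% with pseudocount 8, 62.2% with quantile scaling and 69.6% to 81.6% without 1 library. The share higher in embryo (6.42%) became 4.28% with at least 100 in the higher group, 11.9% with no fold and 11.2% with quantile scaling. The share that fell in embryo from zygote to maturity (53.4%) became 41.7% with library weights, 47.6% with quantile scaling, 46.4% with the spread of the compared groups alone and 52.4% to 59.7% without 1 library. In seed coat the share that rose was 37.8% to 41.4% and the share that fell 30.07% to 35.03% without 1 library. Here and below, the shares of all tested genes under fits other than the main one were not computed.

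For the lower genes the share higher in embryo over the stages (32.98%) became 41.2% by DESeq2, 27.2% at or above 0.1% of the highest library, 44.4% with at least 100 in the higher group, 46.1% with a filter of 50, 13.6% with library weights, 16.8% with no filter, 40.03% with no fold, 38.2% and 24.03% with pseudocounts 0.5 and 8, 39.2% with quantile scaling, 13.2% with the spread of the compared groups alone, 16.8% without the 5 libraries, 19.6% without the 4 and 33.96% to 37.2% without 1 library. The share higher in seed coat (25.8%) became 18.98% with at least 100 in the higher group, 22.0% by edgeR, 20.99% with a filter of 50, 45.8% with library weights, 14.2% with no filter, 34.9% with no fold, 12.95% with pseudocount 8, 15.1% with quantile scaling, 29.4% with the replicate block, 48.7% with the spread of the compared groups alone, 33.5% without the 5 libraries, 30.7% without the 4 and 12.8% to 15.8% without 1 library.

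In embryo the share of lower genes that rose from zygote to maturity (41.98%) became 36.6% at or above 0.1% of the highest library, 36.6% with at least 100 in the higher group, 32.4% with library weights, 27.8% with no filter, 27.3% with pseudocount 8, 37.6% with quantile scaling, 19.7% with the spread of the compared groups alone, 24.4% without the 5 libraries, 23.1% without the 4 and 37.8% to 40.6% without 1 library. The share that fell (17.1%) became 22.8% by DESeq2, 31.02% with at least 100, 20.3% by edgeR, 22.2% with a filter of 50, 7.88% with library weights, 8.53% with no filter, 20.3% with pseudocount 8, 23.9% with quantile scaling, 8.00% with the spread of the compared groups alone, 11.6% without the 5 libraries, 13.08% without the 4 and 15.8% to 22.4% without 1 library.

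In seed coat the share of lower genes that rose (52.3%) became 47.6% with TMM scaling, 47.9% at or above 0.1%, 41.7% with at least 100, 46.96% by edgeR, 69.0% with library weights, 45.2% with no filter, 37.98% with pseudocount 8, 33.5% with quantile scaling, 45.4% with the spread of the compared groups alone, 32.8% without the 5 libraries, 31.01% without the 4 and 41.98% to 44.7% without 1 library. The share that fell (9.75%) became 15.1% by DESeq2, 26.9% with at least 100, 14.4% by edgeR, 14.4% with a filter of 50, 4.997% with library weights, 4.75% with no filter, 12.95% with pseudocount 8, 23.2% with quantile scaling, 5.72% with the spread of the compared groups alone and 6.42% without the 5 libraries.

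The replicate numbers showed little sign of pairing zygote-stage whole seed with ovule. The correlation of the deviations of same-numbered libraries of these groups was 0.0546 across genes. Over 300 pairs of groups it ran from -0.466 to 0.536 and exceeded 0.1 in 59. Whether the numbers mark shared handling was not tested. With the replicate number as a block 480 genes were higher and 724 lower, which is within 1.5 times the counts without the block.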
